A study of Homo sapiens with 9 samples.

Results

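The mitochondrial ribosomal protein genes are the nuclear genes that encode the proteins of the ribosome inside mitochondria. Members were taken from the count table by their Ensembl identifiers: every protein-coding gene whose symbol begins with MRPL or MRPS and goes on with a number, plus DAP3. This rule used names alone and found 77 of the 24344 genes, 48 of the large subunit and 29 of the small subunit. Of these, 76 passed the filter on low counts and were tested among 14195 genes. The exception was MRPL30, which had 1 count in each of 2 libraries and 0 in the others. MRPL30 overlaps other annotated genes on the same strand, and how shared reads were counted is not known.

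MDA-MB-231 is an established human breast adenocarcinoma line that lacks the oestrogen and progesterone receptors. The cells came from ATCC and were treated for 48 h with one of 3 plant injections before total RNA was sequenced as unstranded read pairs. Compound Kushen Injection (CKI) is an extract of 2 herbs, Kushen and Baituling, and was given at 2 mg/mL, which the study's methods describe as total alkaloid. Kushen injection and Baituling injection hold the extract of a single herb and were diluted in the same ratio as CKI. Each group had 3 libraries, 9 in all, and every library came from treated cells of the same line in DMEM with fetal bovine serum. Untreated cells were not analysed here, so each value below compares an injection with another injection. The series calls the 3 libraries of a group biological replicates, but nothing says how the cultures were kept apart, so p-values measure the spread between these libraries.

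Mitochondrial ribosomes translate the few messages that mitochondrial DNA encodes, all of them for membrane subunits of the respiratory chain and the ATP synthase. Their ribosomal RNAs come from mitochondrial DNA, whereas all their proteins are made in the cytosol and imported. Part of the proteins have counterparts in bacterial ribosomes, such as the proteins of the stalk that binds translation factors, and the rest were added in the evolution of mitochondria. The mRNAs encoded by mitochondrial DNA are not analysed here.

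Library totals ran from 20144628 to 23782071 counts. The factors that edgeR's trimmed mean of M values (TMM) gave were 1.075 to 1.099 with CKI, 1.024 to 1.047 with Kushen and 0.8774 to 0.8995 with Baituling, so the choice of scaling moved values between Baituling and the other groups. Of 6 markers listed for the line, VIM, CD44, CAV1, AXL and FOSL1 had group means of at least 169 in CPM (counts scaled by TMM to one common library size), while SPARC lay between 0.877 and 2.87 CPM. VIM, which encodes vimentin, averaged 350.5 CPM with CKI, 584 with Kushen and 2070 with Baituling. Of 5 markers listed as low or absent in the line, ESR1 and PGR had at most 4 counts in a library. The other 3, ERBB2, EPCAM and CDH1, passed the filter on low counts. All 3 were lower in CKI and in Kushen than in Baituling at an adjusted p under 0.05 in edgeR's test. So were all 6 markers listed for the line, where 37% and 36.1% of all genes were lower. The median log2 fold changes of those 6 were -1.17 and -1.14. Of 4 markers of blood cells, HBB had 0 counts, CD3E and PTPRC had at most 9, and CD14 averaged 5.95 to 10.1 CPM. In RNA from whole cultures, fewer cells of a type and less RNA per cell cannot be told apart.

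The members were expressed at intermediate levels, and the large subunit genes lay above the small subunit genes. Levels between genes were compared as RPKM, here TMM-scaled CPM divided by the kilobases of a gene's annotated exons. Over the 9 libraries the median member had 21.2 RPKM, with quartiles of 10.7 and 31.2, against 4.65 for all genes tested that had a length, 39.1 for nuclear oxidative phosphorylation subunits and 180.1 for cytosolic ribosomal proteins. The 47 large subunit genes had a median of 24.3 RPKM and the 29 small subunit genes 12 RPKM. With the length of each gene's canonical transcript in place of all annotated exons, an alternative chosen after the values were seen, these medians were 44.6 and 28.2 RPKM, so the order was the same but the values were not.

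MRPL14 stood first at 356 RPKM and ranged from 315 to 417 over the libraries. MRPL41 followed at 256 RPKM (222 to 296) and MRPS10 at 129 RPKM (118 to 139), and the ranges of these 3 genes did not overlap. MRPL14 and MRPS10 have bacterial counterparts, and MRPL41 is specific to mitochondrial ribosomes. MRPL2, a protein near the peptidyl transferase centre, had 72.4 RPKM (60.1 to 97.5), and MRPS34 had 71.5 RPKM (55.4 to 105), so these neighbours overlapped. At the low end stood MRPS22 at 2.63 RPKM, MRPS24 at 2.56, MRPS25 at 2.07, MRPL46 at 1.33 and MRPL38 at 0.982. Both ends depended on the length used. With canonical transcript lengths MRPL14 and MRPL41 still came first, but MRPL24 moved from rank 7 to rank 3, at 131.5 RPKM, MRPS10 from rank 3 to rank 5 and MRPS34 from rank 5 to rank 13. MRPS22 has 16385 annotated exon bases but a canonical transcript of 1205, which moved it from rank 72 to rank 40, at 35.8 RPKM. MRPL38 was last by either length. Each of the members named here at the low end also overlaps another annotated gene on the same strand. How reads of shared bases were counted is not given in the sources used here, and its part in these levels was not tested.

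**Figure D1:**
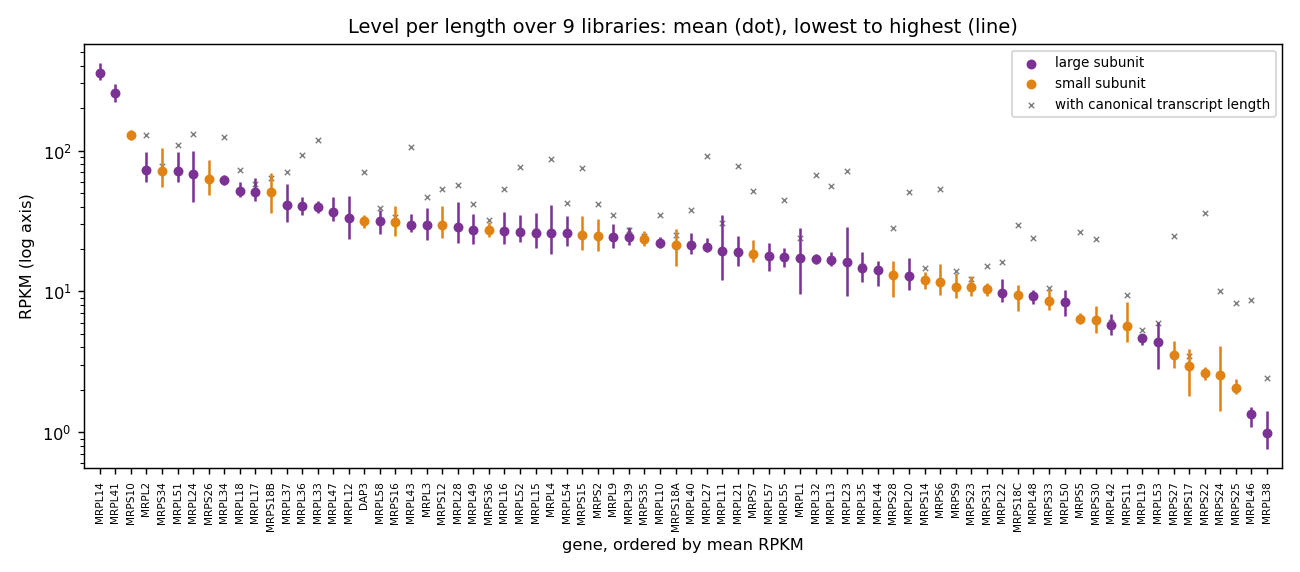
Level of the 76 tested members in RPKM on a log axis, ordered by the mean over 9 libraries. Dots are means, lines run from the lowest to the highest library, colours mark the subunit and grey crosses give the mean with the canonical transcript length. MRPL14 is first at 356 RPKM and MRPL38 last at 0.982 RPKM, and the crosses lie far above the dots for several of the low genes, such as MRPS22.

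The clearest difference among the injections was that most members were lower with CKI, and with Kushen, than with Baituling. In CKI against Baituling 62 of 76 members were lower (81.6%) and 8 were higher (10.5%) at an adjusted p under 0.05 in edgeR's quasi-likelihood test. Over all genes tested, 37% were lower and 39.1% higher in this comparison. The median log2 fold change was -0.35 over the members, with quartiles of -0.57 and -0.16, and 0.03 over all genes. In Kushen against Baituling 62 members were again lower (81.6%) and 4 higher (5.26%), against 36.1% and 35.6% of all genes, with medians of -0.38 and 0.02. Each pair of comparisons shares the libraries of 1 group, here those of Baituling. With CKI against Kushen the members were divided, 17 lower (22.4%) and 11 higher (14.5%), against 20.2% and 19.6% of all genes, with medians of -0.01 and 0.01. In either direction, 28 members (36.8%) passed the test between CKI and Kushen, where 39.8% of all genes did. Against Baituling 70 members (92.1%) passed it for CKI and 66 (86.8%) for Kushen, beside 76.1% and 71.6% of all genes.

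Most of these differences were small. Only 4 members were lower by more than 1 on the log2 scale in CKI against Baituling, where 7.91% of all genes were, and 2 in Kushen against Baituling, where 6.73% of all genes were. Higher by this fold were 11.2% and 8.5% of all genes in these comparisons, and no member. A single member passed this fold in CKI against Kushen, where 1.7% of all genes rose by it. The libraries of the groups did not overlap for 70 members in CKI against Baituling, 66 in Kushen against Baituling and 38 in CKI against Kushen, and the same held for 78.3%, 73.1% and 49.5% of all genes.

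**Figure D2:**
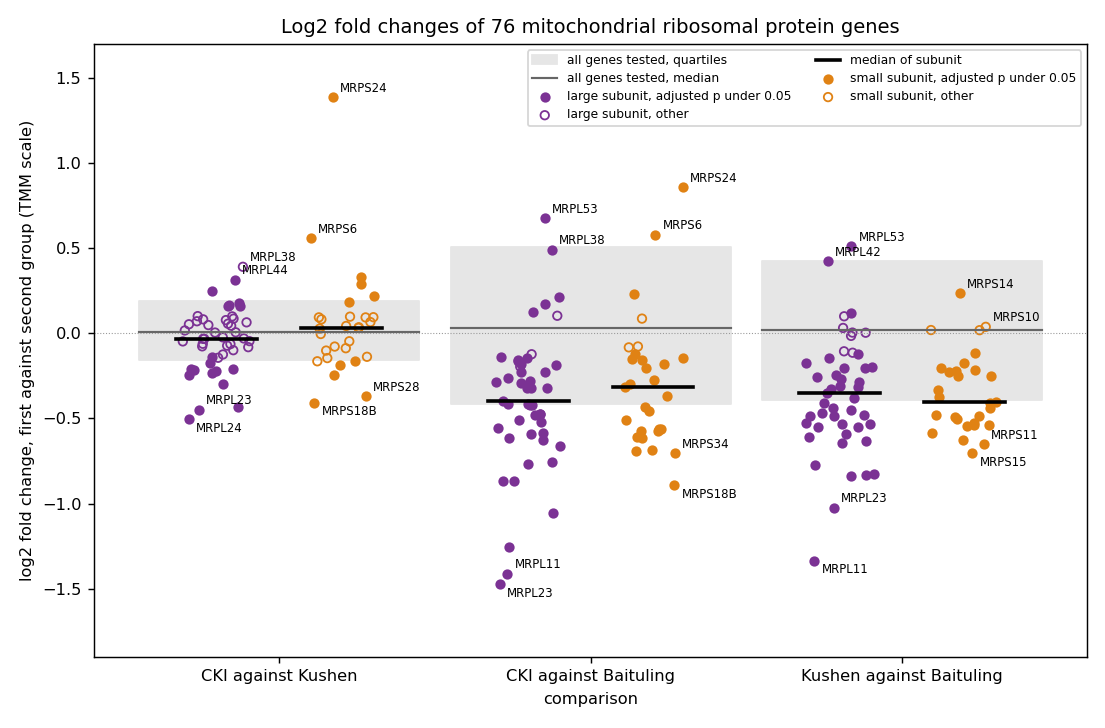
Log2 fold change of each of the 76 tested members in the 3 comparisons, on the TMM scale. Filled dots have an adjusted p under 0.05, colours mark the subunit, black bars are subunit medians, and grey lines and bands are the median and quartiles of all 14195 genes. In both comparisons with Baituling most dots lie below 0, with member medians of -0.35 and -0.38, whereas in CKI against Kushen they spread around -0.01.

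The direction against Baituling depended in part on the scaling. With library totals alone, the median of all genes moved to 0.32 in CKI against Baituling and to 0.23 in Kushen against Baituling, and the members then split into 21 higher and 32 lower, and into 11 higher and 41 lower. Over all genes, library totals gave 57% higher and 22.6% lower in the first comparison and 50.6% and 24.6% in the second. In CKI against Kushen library totals gave 24 higher and 10 lower members, beside 29.7% and 12.9% of all genes. DESeq2's size factors gave 8 higher and 20 lower members there, beside 18% and 21.9% of all genes. Relative to the median of all genes, the members' median was -0.38 in CKI against Baituling under TMM and under library totals, and -0.40 and -0.39 in Kushen against Baituling. In each of these scalings 66 members (86.8%) lay below the median of all genes in the first comparison and 67 (88.2%) in the second, against 41 (53.9%) in CKI against Kushen. A change of scaling shifts all genes alike. These relative values were therefore bound to stay nearly the same, and their sameness is no check on the scaling.

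As a share of all counts, with no scaling factor, the members took 0.476% to 0.483% with CKI, 0.462% to 0.470% with Kushen and 0.502% to 0.528% with Baituling. These ranges did not overlap. On the TMM scale the summed CPM of the members was 4333, 4398 and 4491 in CKI, 4495, 4518 and 4517 in Kushen, and 6021, 5635 and 5585 in Baituling. The Baituling libraries lay above all others, and the first of them was highest. The order of CKI and Kushen depended on the scaling: CKI lay above Kushen as a share of counts and below it on the TMM scale.

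Most genes of either subunit were lower against Baituling. Of all genes tested, 37% were lower and 39.1% higher in CKI against Baituling, and 36.1% and 35.6% in Kushen against Baituling. In CKI against Baituling 39 of 47 large subunit genes were lower and 5 higher, with a median log2 fold change of -0.40, and 23 of 29 small subunit genes were lower and 3 higher, with a median of -0.32. Kushen against Baituling gave 37 lower and 3 higher large subunit genes, with a median of -0.35, and 25 lower and 1 higher small subunit genes, with a median of -0.41. For CKI against Kushen the median was -0.03 for the large subunit, with 12 lower (25.5%) and 5 higher (10.6%). It was 0.03 for the small subunit, with 5 lower (17.2%) and 6 higher (20.7%). Over all genes 20.2% were lower and 19.6% higher in this comparison. The large minus small difference of medians was thus -0.06, -0.08 and 0.06 in CKI against Kushen, CKI against Baituling and Kushen against Baituling, beside replicate SDs of 0.03, 0.04 and 0.02. A pair of proteins named for the small subunit, MRPS30 and MRPS18A, belong to the large subunit by structure. With them moved, the difference in Kushen against Baituling was -0.007.

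The summed CPM of the large subunit over that of the small subunit, a ratio that scaling does not change, differed between groups. It was 1.75, 1.75 and 1.78 in CKI, 1.79, 1.81 and 1.84 in Kushen, and 1.95, 1.89 and 1.90 in Baituling. The groups did not overlap, with means of 1.76 ± 0.018, 1.82 ± 0.024 and 1.91 ± 0.032 (SD, n = 3). A sum gives most weight to abundant genes, and with subunits by symbol its order differed from the order of the medians. The ratio was lower in Kushen than in Baituling, while the median fold change was lower for the small subunit. With MRPS30 and MRPS18A counted as large, the difference of medians was -0.007, and the ratio was not recomputed.

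**Figure D3:**
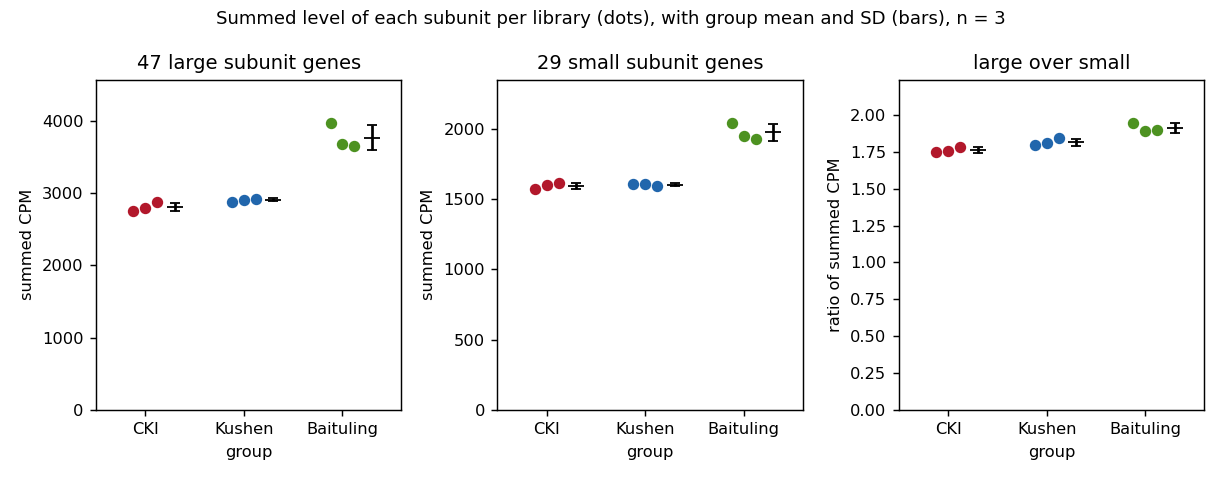
Summed CPM of the large and small subunit genes, and their ratio, in each library. Dots are libraries, and bars are the group mean and SD with n = 3. Both sums are higher in Baituling than in the other groups, and the ratio has means of 1.76, 1.82 and 1.91 in CKI, Kushen and Baituling.

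Members with a number up to that of the highest numbered bacterial protein of their subunit were set beside those numbered higher, which stands roughly for shared against added proteins. In CKI against Baituling the median log2 fold change was -0.42 for 27 large subunit genes with a number in the bacterial range and -0.31 for 20 beyond it. For the small subunit it was -0.46 over 15 genes and -0.23 over 14. Kushen against Baituling gave -0.48 and -0.29 for the large subunit and -0.48 and -0.25 for the small subunit. The genes in the bacterial range thus had the lower median in both subunits. The number does not always mark the counterpart: MRPS24, numbered beyond the range, is the counterpart of a bacterial protein.

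Among the strongest falls was that of MRPL11, a large subunit gene. Its protein belongs to the base of the stalk where translation factors bind. Its CPM was 30.5, 31.6 and 32.0 in CKI, 32.2, 34.5 and 32.4 in Kushen, and 88.7, 81.8 and 79.5 in Baituling. CKI lay just below Kushen without overlap, and both lay far below Baituling. The log2 fold change was -1.41 ± 0.06 (SE, edgeR adjusted p = 1.54e-14) in CKI against Baituling and -1.34 ± 0.06 (edgeR adjusted p = 5.5e-14) in Kushen against Baituling, and -0.08 ± 0.06 (edgeR adjusted p = 0.315) in CKI against Kushen. MRPL11 lies on chromosome 11 from 66202546 to 66234209 on the minus strand (GRCh37). PELI3, which overlaps it on the other strand, moved the opposite way in CKI against Baituling, by 0.63 ± 0.08 (edgeR adjusted p = 5.07e-07).

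MRPL23, a protein at the exit of the peptide tunnel, separated all 3 groups. It had 28.6, 28.5 and 27.5 CPM in CKI, 37.9, 37.3 and 40.4 CPM in Kushen, and 85.1, 77.5 and 72.1 CPM in Baituling. The log2 fold change was -1.47 ± 0.06 in CKI against Baituling (edgeR adjusted p = 4.13e-14), -1.02 ± 0.06 in Kushen against Baituling (edgeR adjusted p = 9.87e-12) and -0.45 ± 0.06 in CKI against Kushen (edgeR adjusted p = 1.75e-05). The gene spans 1968508 to 2005752 on the plus strand of chromosome 11 (GRCh37). Its antisense RNA MRPL23-AS1 was higher in CKI than in Baituling by 4.02 ± 0.56 (edgeR adjusted p = 2.18e-06) from 1 to 53 counts in a library. Without strand, reads of a gene and of a gene on the other strand of the same bases cannot be told apart.

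MRPL24, another protein at the tunnel exit, had the same order of groups. Its CPM was 73.6, 80.7 and 78.3 in CKI, 111, 106 and 113 in Kushen, and 168, 160.1 and 155 in Baituling. The groups did not overlap. The log2 fold change was -1.05 ± 0.05 in CKI against Baituling (edgeR adjusted p = 1.69e-13), -0.55 ± 0.05 in Kushen against Baituling (edgeR adjusted p = 3.12e-09) and -0.50 ± 0.05 in CKI against Kushen (edgeR adjusted p = 1.78e-07). MRPL24 lies on chromosome 1 from 156707095 to 156711382 on the minus strand (GRCh37).

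MRPL1 forms the mobile stalk near the site where tRNAs leave. It had 17.0, 15.6 and 21 CPM in CKI, 26.3, 23.0 and 22.9 CPM in Kushen, and 46.2, 40.9 and 40.9 CPM in Baituling. Groups were again apart, although the third CKI library came near to Kushen. The log2 fold change was -1.26 ± 0.09 in CKI against Baituling (edgeR adjusted p = 1.49e-10), -0.83 ± 0.09 in Kushen against Baituling (edgeR adjusted p = 6.18e-08) and -0.43 ± 0.09 in CKI against Kushen (edgeR adjusted p = 0.00108). Its position is chromosome 4, 78783984 to 78873939, on the plus strand (GRCh37).

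MRPL12, the stalk protein that contacts translation factors and is also known to bind the mitochondrial RNA polymerase, had 23.7, 25 and 26.4 CPM in CKI, 28.2, 30.9 and 28.6 CPM in Kushen, and 46.4, 43.0 and 47.8 CPM in Baituling. It fell by 0.87 on the log2 scale in CKI against Baituling (SE 0.06, edgeR adjusted p = 1.86e-10) and by 0.65 in Kushen against Baituling (SE 0.06, edgeR adjusted p = 1.66e-08). The step between CKI and Kushen, -0.22 ± 0.06 (edgeR adjusted p = 0.00954), lost its call without the first CKI library (adjusted p = 0.0569), without the second Kushen library (adjusted p = 0.0529) and with library totals (adjusted p = 0.068).

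For MRPL4 and MRPL28, both Kushen and CKI were below Baituling. MRPL4, which lines the peptide tunnel, had 80.9, 84.1 and 85.0 CPM in CKI, 74.6, 88.7 and 92.0 in Kushen, and 166, 149 and 139.9 in Baituling. MRPL28, a large subunit protein, had 71.8, 70.1 and 72.8 CPM in CKI, 67.7, 68.5 and 69.2 in Kushen, and 131, 119 and 115 in Baituling. In Kushen against Baituling the log2 fold changes were -0.84 ± 0.07 for MRPL4 (edgeR adjusted p = 1.3e-09) and -0.83 ± 0.05 for MRPL28 (edgeR adjusted p = 1.5e-11). Neither gene passed the test between CKI and Kushen, with adjusted p-values of 0.76 and 0.328 in edgeR's test. The CKI and Kushen libraries overlapped for MRPL4 and not for MRPL28, which passed with library totals (0.14, adjusted p = 0.0233). The bounds of MRPL28 overlap those of PGAP6 on the same strand. PGAP6 averaged 153 to 165 CPM and had an edgeR adjusted p of 0.639 in CKI against Baituling.

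**Figure D4:**
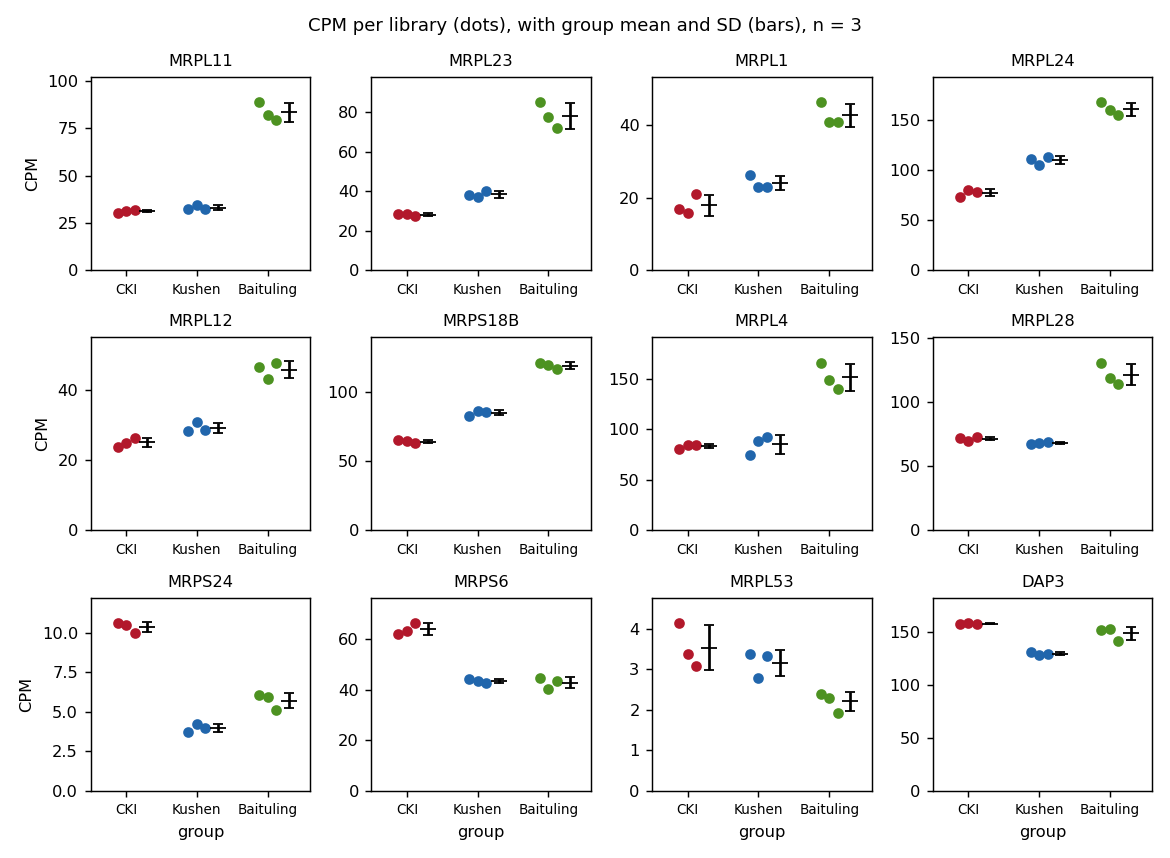
CPM in each library for 12 members, on linear axes that start at 0. Dots are libraries, and bars are the group mean and SD with n = 3. MRPL11, MRPL4 and MRPL28 lie close in CKI and Kushen and are higher in Baituling, MRPL23, MRPL24, MRPL1, MRPL12 and MRPS18B step up from CKI to Kushen to Baituling, and MRPS24 and MRPS6 are highest in CKI.

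Of the members, 13 were lower in all 3 comparisons, that is lowest in CKI and highest in Baituling. They were MRPL1, MRPL3, MRPL12, MRPL23, MRPL24, MRPL50, MRPL54, MRPL57, MRPL58, MRPS18B, MRPS26, MRPS27 and MRPS28. A further 38 were lower in both comparisons with Baituling and did not pass the test between CKI and Kushen. By group means alone, 34 members had the order Baituling, Kushen, CKI from high to low, and 29 had the order Baituling, CKI, Kushen. The remaining orders held for 13 members in all. How many of all genes had these combinations of calls or these orders was not counted, so the counts only describe the members. MRPL10 and MRPS25, singled out after their values were seen, passed the test in no comparison.

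The homologs MRPS18A, MRPS18B and MRPS18C, which descend from a single bacterial protein, differed in their patterns. MRPS18B had 65, 64.3 and 63.2 CPM in CKI, 82.9, 86.6 and 85.8 in Kushen, and 121, 119 and 116 in Baituling. It fell in all comparisons, by 0.89 on the log2 scale in CKI against Baituling (SE 0.04, edgeR adjusted p = 4.26e-13) and by 0.41 in CKI against Kushen (SE 0.04, edgeR adjusted p = 6.9e-07). MRPS18A had 27.7, 24.8 and 27.3 CPM in CKI, 21, 27.0 and 27.5 in Kushen, and 38.2, 36.3 and 35.2 in Baituling. It differed from Baituling in both comparisons, with -0.46 ± 0.08 for CKI (edgeR adjusted p = 4.9e-05) and -0.54 ± 0.08 for Kushen (edgeR adjusted p = 9.07e-06), and its CKI and Kushen libraries overlapped.

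MRPS18C had 46.6, 51.4 and 44.6 CPM in CKI, 39.4, 38.4 and 35.3 in Kushen, and 53.5, 54.1 and 50.1 in Baituling. Unlike MRPS18B it rose in CKI relative to Kushen, with a log2 fold change of 0.33 ± 0.06 (edgeR adjusted p = 0.000269), and was lower in Kushen relative to Baituling, at -0.48 ± 0.06 (edgeR adjusted p = 1.05e-06). Its small step between CKI and Baituling, -0.15 ± 0.06 (edgeR adjusted p = 0.0353), turned to 0.14 with library totals and lost its call without any one of 4 of the 6 libraries, namely CKI libraries 1 and 3 (adjusted p of 0.0987 and 0.16) and Baituling libraries 1 and 2 (adjusted p of 0.0849 and 0.102). No test of the difference between homologs was run.

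The members that rose in CKI were few, and they are given next. MRPS24, a small subunit protein near the mRNA entry, had 10.6, 10.5 and 9.99 CPM in CKI, 3.7, 4.23 and 3.95 in Kushen, and 6.05, 5.92 and 5.13 in Baituling. CKI was above both, and Kushen was lowest. The log2 fold change was 1.39 ± 0.11 in CKI against Kushen (edgeR adjusted p = 1.2e-08), 0.86 ± 0.11 in CKI against Baituling (edgeR adjusted p = 4.47e-07) and -0.53 ± 0.12 in Kushen against Baituling (edgeR adjusted p = 0.000714). The gene lies on chromosome 7 from 43906157 to 43909492 on the minus strand (GRCh37), inside the readthrough gene URGCP-MRPS24, which had at most 2 counts in a library.

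MRPS6, a small subunit protein with a bacterial counterpart, had 62.0, 63.3 and 66.5 CPM in CKI, 44.3, 43.3 and 42.5 in Kushen, and 44.7, 40.3 and 43.3 in Baituling. Its log2 fold change was 0.56 ± 0.05 in CKI against Kushen (edgeR adjusted p = 1.16e-07) and 0.58 ± 0.05 in CKI against Baituling (edgeR adjusted p = 6.56e-09), while Kushen against Baituling gave 0.02 ± 0.05 (edgeR adjusted p = 0.76). With library totals that last difference was 0.23 (adjusted p = 0.00075). SLC5A3, a transporter gene on the same strand within its bounds, had 0 counts in every library.

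MRPL53 and MRPL38, both absent from bacteria, rose in CKI against Baituling from low counts, the lowest being 35 in a library. MRPL53 had 4.16, 3.39 and 3.08 CPM in CKI, 3.38, 2.79 and 3.33 in Kushen, and 2.39, 2.30 and 1.93 in Baituling. The log2 fold change was 0.68 ± 0.18 in CKI against Baituling (edgeR adjusted p = 0.00189) and 0.51 ± 0.18 in Kushen against Baituling (edgeR adjusted p = 0.0162), and the second lost its call without the first Kushen library (adjusted p = 0.0521) or the third Baituling library (adjusted p = 0.0704). CCDC142, whose bounds overlap those of MRPL53 on the same strand, rose by 0.89 ± 0.09 in CKI against Baituling (edgeR adjusted p = 2.64e-08). MRPL38 had 4.12, 4.71 and 3.12 CPM in CKI, 3.34, 2.91 and 2.84 in Kushen, and 2.93, 3.02 and 2.54 in Baituling. Its rise of 0.49 ± 0.17 in CKI against Baituling (edgeR adjusted p = 0.0148) lost its call without the second CKI library (adjusted p = 0.0968) or the third Baituling library (adjusted p = 0.0619).

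These 4 genes, MRPS24, MRPL53, MRPS6 and MRPL38, all overlap a protein-coding gene on the same strand. By the bounds of whole genes, introns included, 13 of the 77 members do. Among the 12 of those that were tested, 4 were higher and 7 lower in CKI against Baituling, with a median log2 fold change of -0.20. Among the 64 members with no such neighbour, 4 were higher and 55 lower, with a median of -0.38. For the 28 members with no overlapping gene on either strand, 2 were higher and 24 lower, with a median of -0.32. Over all genes tested, 39.1% were higher and 37% lower in this comparison. Pseudogenes named after a member exist for 35 members, and the 34 of those tested had a median of -0.41 against -0.32 for the others. Overlap by gene bounds does not show that exon bases are shared. How reads of shared bases were counted is not given in the sources used here, and its part in these values was not tested.

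Other members that were higher than in Baituling moved by at most 0.43 on the log2 scale. MRPL42, a protein specific to mitochondria, had 88.5, 91.5 and 88.3 CPM in CKI, 112, 109 and 109 in Kushen, and 85.0, 79.8 and 81.0 in Baituling. Kushen was above both, at a log2 fold change of 0.43 ± 0.04 against Baituling (edgeR adjusted p = 4.47e-08), and CKI was below Kushen, at -0.30 ± 0.04 (edgeR adjusted p = 2.02e-05). CKI against Baituling was 0.13 ± 0.04 (edgeR adjusted p = 0.015), a call that was lost without the second CKI library (adjusted p = 0.0705) and without the second or the third Baituling library (adjusted p of 0.0802 and 0.0595). MRPS14, a small subunit protein of bacterial origin, was higher by 0.23 ± 0.06 in both CKI and Kushen against Baituling (edgeR adjusted p of 0.0022 and 0.00216). MRPL32, a zinc-binding protein cut to its mature form inside mitochondria, had 61.9, 58.8 and 60.4 CPM in CKI, 61.5, 57.1 and 55.8 in Kushen, and 54.8, 53.7 and 52.1 in Baituling. Its difference of Kushen from Baituling, 0.12 ± 0.05 (edgeR adjusted p = 0.0477), lost its call without any one of 7 of the 9 libraries, with adjusted p-values up to 0.228 when the first Kushen library was left out.

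Members known for a second role showed no common pattern. DAP3, a GTP-binding small subunit protein first described in cell death, had 157, 159 and 158 CPM in CKI, 131, 129 and 129 in Kushen, and 152, 153 and 142 in Baituling. Kushen lay below the other groups. CKI was higher than Kushen by 0.29 ± 0.04 (edgeR adjusted p = 2.15e-05), and Kushen against Baituling was -0.20 ± 0.04 (edgeR adjusted p = 0.000268), which turned to 0.01 with library totals. CKI against Baituling was 0.09 ± 0.04 (edgeR adjusted p = 0.0651) and passed the test when only the libraries of those groups were fitted (adjusted p = 0.0442), with library totals (0.37, adjusted p = 5.39e-08), with upper quartile scaling (0.16, adjusted p = 0.00176) and with at least 10 counts in every library (0.13, adjusted p = 0.00713). YY1AP1, which overlaps DAP3 on the other strand, was also higher in CKI than in Kushen, by 0.33 ± 0.06 (edgeR adjusted p = 0.000393).

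MRPS30, also known as a programmed cell death protein, had 36.8, 35.9 and 38.1 CPM in CKI, 31.2, 34.3 and 31.9 in Kushen, and 43.2, 48.8 and 46.2 in Baituling. The groups did not overlap, and the log2 fold change was -0.32 ± 0.06 in CKI against Baituling (edgeR adjusted p = 7.53e-05) and -0.50 ± 0.06 in Kushen against Baituling (edgeR adjusted p = 3.43e-07). CKI against Kushen was 0.19 ± 0.06 (edgeR adjusted p = 0.0183) and lost its call without the third CKI library (adjusted p = 0.0721) or without the first or the third Kushen library (adjusted p of 0.0664 and 0.0674). MRPL58, a release factor built into the large subunit that frees stalled peptides, had 30.1, 28.3 and 31.4 CPM in CKI, 38.3, 34.3 and 33.5 in Kushen, and 42.1, 38.9 and 38.6 in Baituling. Its log2 fold changes were -0.42 ± 0.07 in CKI against Baituling (edgeR adjusted p = 9.43e-06) and -0.24 ± 0.06 in CKI against Kushen (edgeR adjusted p = 0.00535). That in Kushen against Baituling, -0.17 ± 0.06 (edgeR adjusted p = 0.021), lost its call without the second or the third Kushen library (adjusted p of 0.0695 and 0.123) or the first Baituling library (adjusted p = 0.136).

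MRPL41, which has been studied as a regulator of cell growth, had 140.0, 141 and 151 CPM in CKI, 129, 147 and 155 in Kushen, and 173, 154 and 150.2 in Baituling. The groups overlapped. Its changes against Baituling, -0.14 ± 0.06 for CKI (edgeR adjusted p = 0.0449) and -0.15 ± 0.06 for Kushen (edgeR adjusted p = 0.0413), lost their calls without the first Baituling library (adjusted p of 0.258 and 0.296), without the first CKI library (0.138 and 0.0508), and without the second (0.128 and 0.0553), the one for Kushen also without the first Kushen library (adjusted p = 0.222). MRPS36, also assigned to the 2-oxoglutarate dehydrogenase complex, had 38.3, 41.3 and 43.2 CPM in CKI, 39.6, 41.3 and 38.2 in Kushen, and 45.8, 44.5 and 48.7 in Baituling. Against Baituling it had -0.18 ± 0.06 for CKI (edgeR adjusted p = 0.0102) and -0.22 ± 0.06 for Kushen (edgeR adjusted p = 0.00245), and the first lost its call without the first CKI library (adjusted p = 0.0702) or the third Baituling library (adjusted p = 0.055). MRPL44, which carries a fold of the ribonuclease III family, had 26.2, 23.8 and 24.4 CPM in CKI, 20.9, 20.5 and 18.4 in Kushen, and 28, 27.3 and 25.8 in Baituling. It was lowest in Kushen, with 0.32 ± 0.07 for CKI against Kushen (edgeR adjusted p = 0.00118) and -0.44 ± 0.07 for Kushen against Baituling (edgeR adjusted p = 1.45e-05).

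Among the most abundant members, MRPL14 had 301, 316 and 321 CPM in CKI, 321, 331 and 340 in Kushen, and 399, 371 and 367 in Baituling. Its log2 fold change was -0.28 ± 0.04 in CKI against Baituling (edgeR adjusted p = 1.13e-05) and -0.20 ± 0.04 in Kushen against Baituling (edgeR adjusted p = 0.000517), and both were 0.01 with library totals. MRPS10 had 248, 249.4 and 253 CPM in CKI, 287, 293 and 276 in Kushen, and 284, 278 and 271 in Baituling. It was lower in CKI than in Kushen, at -0.19 ± 0.04 (edgeR adjusted p = 0.000984), and in CKI than in Baituling, at -0.15 ± 0.04 (edgeR adjusted p = 0.00237), the latter turning to 0.14 with library totals. MRPL2 had larger changes, with -0.48 ± 0.05 in CKI against Baituling (edgeR adjusted p = 3.67e-08) and -0.53 ± 0.05 in Kushen against Baituling (edgeR adjusted p = 1.17e-08), as did MRPS34 with -0.70 ± 0.07 (edgeR adjusted p = 1.21e-08) and -0.54 ± 0.07 (edgeR adjusted p = 5.87e-07).

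At the low end by length, MRPS22 had 42.7, 44 and 41.5 CPM in CKI, 40.9, 38.7 and 40.5 in Kushen, and 47.1, 46.5 and 45.9 in Baituling. MRPS22, a mitochondria-specific protein of the small subunit, was lower in Kushen than in Baituling at -0.22 ± 0.05 (edgeR adjusted p = 0.0009). In CKI against Baituling it had -0.12 ± 0.05 (edgeR adjusted p = 0.036), which lost its call without any one of the libraries CKI 1, CKI 3, Baituling 1 and Baituling 2 (adjusted p from 0.0618 to 0.114) and was 0.16 with library totals. MRPL46 had -0.27 ± 0.11 in Kushen against Baituling (edgeR adjusted p = 0.0297), which lost its call without the first or the third Kushen library (adjusted p of 0.148 and 0.0507) or the first or second Baituling library (adjusted p of 0.0897 and 0.0517). MRPS25 had adjusted p-values of 0.249, 0.286 and 0.817 in edgeR's test of the 3 comparisons. Against Baituling with library totals it had 0.21 for CKI (edgeR adjusted p = 0.0162) and 0.23 for Kushen (edgeR adjusted p = 0.00831). With library totals, calls were also lost for MRPL58, MRPS18A and MRPS30 in CKI against Baituling (edgeR adjusted p of 0.0802, 0.0553 and 0.658) and for MRPL46, MRPS22 and MRPS36 in Kushen against Baituling (edgeR adjusted p of 0.646, 0.927 and 0.887).

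The other translation systems and the partner complexes of mitochondria were set beside the members. Over all genes tested, 37% were lower and 39.1% higher in CKI against Baituling. The shares were 36.1% and 35.6% in Kushen against Baituling, and 20.2% and 19.6% in CKI against Kushen. The 85 tested cytosolic ribosomal protein genes, which build the ribosomes of the cytosol, had a median log2 fold change of -0.88 in CKI against Baituling, with 79 lower and 3 higher, and of -0.65 in Kushen against Baituling, with 79 lower and 3 higher. They were also lower in CKI than in Kushen, with 71 lower and a median of -0.24, where the members were divided. The 78 nuclear oxidative phosphorylation subunits, among whose complexes are the products of mitochondrial translation, had medians of -0.30 in CKI against Baituling, with 54 lower and 10 higher, and of -0.25 in Kushen against Baituling, with 47 lower and 10 higher. Between CKI and Kushen 15 were lower (19.2%) and 5 higher (6.41%), with a median of -0.06, so the share lower was near that of all genes. No test of the difference between these sets was run.

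Of 4 further proteins of the mitochondrial ribosome with other names, 3 were lower in both comparisons with Baituling. GADD45GIP1, a large subunit protein, had -0.83 ± 0.05 in CKI against Baituling (edgeR adjusted p = 1.64e-11). AURKAIP1 and CHCHD1, both of the small subunit, had -0.60 ± 0.06 (edgeR adjusted p = 4.02e-08) and -0.38 ± 0.05 (edgeR adjusted p = 2.78e-06). PTCD3, a small subunit protein of the pentatricopeptide repeat family, was higher, at 0.20 ± 0.05 (edgeR adjusted p = 0.00137). Between CKI and Kushen their adjusted p-values in edgeR's test ran from 0.112 to 0.991.

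Of 25 genes listed as assembly factors of the mitochondrial ribosome, 15 were lower (60%) and 3 higher (12%) in CKI against Baituling. The median log2 fold change was -0.20. In Kushen against Baituling 15 were lower (60%) and 2 higher (8%), with a median of -0.16. Over all genes, 37% and 36.1% were lower in these comparisons, and 39.1% and 35.6% higher. RBFA, which matures the small subunit RNA, averaged 6.31 CPM with CKI, 9.54 with Kushen and 14.9 with Baituling and was -1.24 ± 0.10 in CKI against Baituling (edgeR adjusted p = 4.89e-10). ERAL1, a GTPase that protects that RNA during assembly, averaged 55.7, 46.8 and 86.0 CPM in the same order, with -0.63 ± 0.05 in CKI against Baituling (edgeR adjusted p = 8.52e-10). LRPPRC, kept in this list although it stabilises mitochondrial mRNAs, was lower at -0.51 ± 0.04 (edgeR adjusted p = 1.01e-09). In CKI against Kushen 5 were higher (20%) and 4 lower (16%), near the 19.6% and 20.2% of all genes. ERAL1 was at 0.25 ± 0.05 (edgeR adjusted p = 0.000695) and RBFA at -0.60 ± 0.10 (edgeR adjusted p = 9.54e-05).

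The 16 translation factors and helpers of mitochondria were divided. In CKI against Baituling 7 were lower (43.8%) and 4 higher (25%), with a median of -0.13. In Kushen against Baituling 6 were lower (37.5%) and 4 higher (25%), with a median of -0.004. The shares lower were near those of all genes, 37% and 36.1%. Higher were 39.1% and 35.6% of all genes. GFM2, which works in ribosome recycling, averaged 46.7 CPM with CKI, 42.5 with Kushen and 27.2 with Baituling and rose in CKI against Baituling by 0.78 ± 0.06 (edgeR adjusted p = 2.91e-10). MRRF, the recycling factor that acts with it, averaged 15.8, 18.8 and 28.2 CPM and went the other way, at -0.83 ± 0.08 (edgeR adjusted p = 7.17e-09). MTRFR, which rescues stalled ribosomes, had -0.57 ± 0.05 (edgeR adjusted p = 5.24e-09). Between CKI and Kushen 6 were lower (37.5%) and 2 higher (12.5%), beside 20.2% and 19.6% of all genes. OXA1L, which inserts new proteins into the inner membrane, was at -0.22 ± 0.05 (edgeR adjusted p = 0.00065). It had the smallest adjusted p though not the largest fold.

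The promoters of the members were searched for short motifs of factors known for mitochondrial and ribosomal genes, on both strands of 300 bases from 250 before to 50 after the annotated start (RefSeq, GRCh38.p14). An entry was matched by symbol for 68 of the 77 members. The ETS motif CCGGAAG, the kind that the GABP factor binds, was in 28 of 68 (41.2%), against 10.7% of 27305 promoters of all genes and 18.7% of 10674 promoters of tested protein-coding genes. It was in 41.5% of the large and 40.7% of the small subunit promoters, in 33.3% of those of cytosolic ribosomal proteins and in 30.8% of those of oxidative phosphorylation subunits. The YY1 motif AAGATGGCG was in 13 of 68 (19.1%), against 1.85% of all promoters and 3.81% of those of tested protein-coding genes. It was in 8.7% of the promoters of cytosolic ribosomal proteins and in 12.3% of those of oxidative phosphorylation subunits. Both motifs were in 4 members, and in 0 of these did the matches overlap.

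Other motifs were less set apart from other genes. The NRF1 motif, GCGC and GCGC around any 2 bases, was in 11.8% of the members' promoters and 15.6% of those of tested protein-coding genes. The E-box CACGTG was in 7.35% and 9.88%, and the antioxidant response core TGACNNNGC in 10.3% and 15%. The cyclic AMP response motif TGACGTCA was in 0 of 68 and in 3.17%. The share of bases that are G or C was 60.7% in the median member promoter and 58.3% in the median of all.

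The promoters of 6 members are printed to show what the ETS matches look like in members named above, with 250 bases up to the start, 5′ to 3′ on the strand of the gene, and the ETS motif in capitals in either orientation. MRPS34 on chr16:1773135-1773384 (minus strand) has 3 matches, of which the last 2 lie close to the start. MRPS22 on chr3:139343744-139343993 (plus strand) has 2, facing each other across a single base. MRPL53 on chr2:74472681-74472930 (minus strand) and MRPS18A on chr6:43687792-43688041 (minus strand) have 1 each. MRPL1 on chr4:77862580-77862829 (plus strand) and MRPL11 on chr11:66438849-66439098 (minus strand), among the members with the strongest falls, have none in these bases.
MRPS34: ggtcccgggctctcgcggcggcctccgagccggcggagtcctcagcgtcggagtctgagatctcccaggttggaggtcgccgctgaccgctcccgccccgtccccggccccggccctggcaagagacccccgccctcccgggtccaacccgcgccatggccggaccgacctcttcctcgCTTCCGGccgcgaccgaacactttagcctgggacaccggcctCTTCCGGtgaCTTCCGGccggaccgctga
MRPS22: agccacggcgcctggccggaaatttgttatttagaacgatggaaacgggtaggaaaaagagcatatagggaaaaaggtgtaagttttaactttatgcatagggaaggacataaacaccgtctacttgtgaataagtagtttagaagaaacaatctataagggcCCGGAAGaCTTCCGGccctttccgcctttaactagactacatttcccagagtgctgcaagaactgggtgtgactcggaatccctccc
MRPL53: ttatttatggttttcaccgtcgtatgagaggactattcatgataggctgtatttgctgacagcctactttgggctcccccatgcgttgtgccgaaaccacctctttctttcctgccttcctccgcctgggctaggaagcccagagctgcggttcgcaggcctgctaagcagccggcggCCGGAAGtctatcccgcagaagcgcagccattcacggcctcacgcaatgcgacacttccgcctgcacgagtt
MRPS18A: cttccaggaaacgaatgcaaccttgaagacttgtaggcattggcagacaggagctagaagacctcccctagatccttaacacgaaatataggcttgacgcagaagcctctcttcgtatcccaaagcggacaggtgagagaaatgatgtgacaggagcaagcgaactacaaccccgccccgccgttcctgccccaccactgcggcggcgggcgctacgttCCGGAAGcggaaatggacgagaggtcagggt
MRPL1: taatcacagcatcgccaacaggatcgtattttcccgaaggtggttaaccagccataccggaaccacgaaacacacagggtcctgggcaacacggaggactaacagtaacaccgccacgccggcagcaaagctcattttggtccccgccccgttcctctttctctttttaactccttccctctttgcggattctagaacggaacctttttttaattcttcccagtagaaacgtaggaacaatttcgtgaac
MRPL11: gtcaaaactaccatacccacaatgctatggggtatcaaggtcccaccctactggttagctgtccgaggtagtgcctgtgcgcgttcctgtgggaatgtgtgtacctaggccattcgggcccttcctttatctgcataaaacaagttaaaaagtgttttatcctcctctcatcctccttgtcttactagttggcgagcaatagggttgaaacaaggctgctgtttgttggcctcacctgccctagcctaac

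The ETS matches gathered near the start, with a median of 25.5 bases before it and 27 of 37 within 60 bases. Of 14 YY1 matches, 10 lay after the start. Positions were not computed in promoters of other genes, so these values only describe the members. In CKI against Baituling the median log2 fold change was -0.32 for members with the ETS motif and -0.35 for those without, and in Kushen against Baituling it was -0.38 and -0.36. For the YY1 motif the medians were -0.20 with and -0.41 without in CKI against Baituling, and -0.27 and -0.38 in Kushen against Baituling. These are descriptions with no test, and a match of letters is not a bound site.

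**Figure D5:**
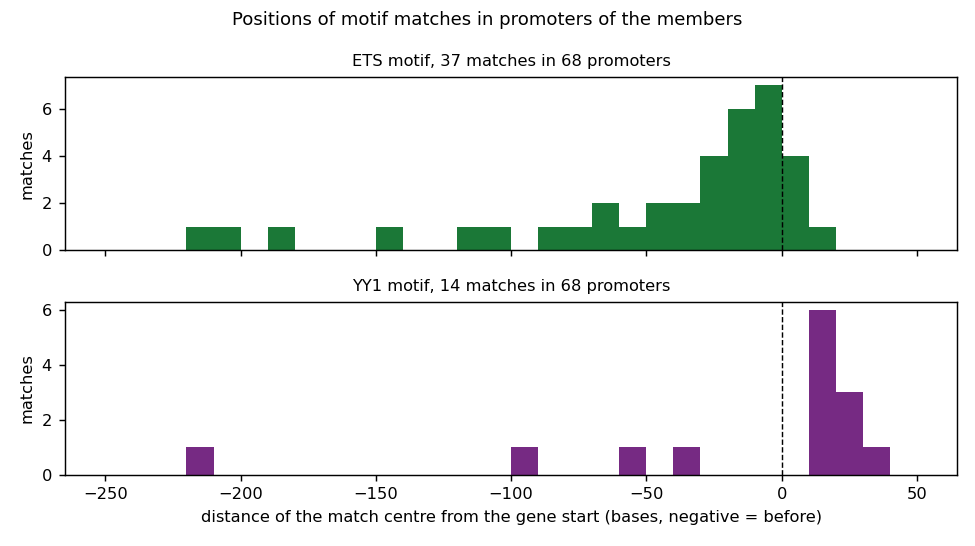
Number of ETS and YY1 motif matches in the 68 member promoters by distance from the gene start, in bins of 10 bases. Negative distances lie before the start, marked by the dashed line. The 37 ETS matches gather just before the start and most of the 14 YY1 matches lie after it.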

How the data were processed

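RNA from 9 libraries of treated MDA-MB-231 cells was sequenced. The authors trimmed reads with Trim Galore 0.3.7, aligned them to hg19 with STAR 2.5.3a, and deposited raw counts per Ensembl gene. The counting program and annotation are not given in the sources used here. The table has 24566 rows, of which 222 repeat another row with identical counts and were used once. Symbols came from GENCODE, which named 24224 genes. Genes were filtered with filterByExpr (minimum count 10, minimum total 15) and tested on the counts with edgeR 4.0.16 (R 4.3.3), with TMM scaling, 1 quasi-likelihood fit of all 9 libraries by group and Benjamini-Hochberg adjustment over 14195 genes. The common biological variation was 4.53%. SEs are the log2 fold change over the root of F. The fold threshold was a log2 fold change of 1. DESeq2 1.42.0 served as an alternative. The edgeR test of CKI against Kushen was run on simulated counts that gave every gene the same spread. Such counts cannot check the test for genes or groups of unequal spread. Replicate numbers did not pair libraries.

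Members and lists were chosen with earlier results of these data known. Named with values are, per comparison, the 4 strongest rises and 4 strongest falls of called members whose libraries do not overlap, the 5 highest and 5 lowest by RPKM, DAP3, MRPS30, MRPL12, MRPL41, MRPS36, MRPL58 and the MRPS18 homologs, and at most 3 genes per list with the smallest adjusted p. MRPL45 and MRPS21 were not matched in the table and are not analysed here. Alternatives changed scaling, filter, test, libraries, blocking, repeated rows and the assignment of subunits.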

Additional observations from a re-analysis of the deposited data

How the results depend on the processing

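Of the summary values, 311 of the recomputed ones stayed within 1.5 times the count or 1 replicate SD of the reported value and 28 moved. With library totals 24 members were higher and 10 lower in CKI against Kushen, beside 29.7% and 12.9% of all genes. In CKI against Baituling 21 were higher and 32 lower, beside 57% and 22.6% of all genes. Kushen against Baituling gave 11 and 41, beside 50.6% and 24.6%. The members' medians were 0.061, -0.059 and -0.17 in the same order, with 1 member past the fold in the last comparison. Among the members named with values, the only ones counted here, the same setting turned the direction of 8 in CKI against Baituling, to 0.0087 for MRPL14, 0.15 for MRPL41, 0.17 for MRPL44, 0.14 for MRPS10, 0.14 for MRPS18C, 0.16 for MRPS22, 0.21 for MRPS25 and 0.11 for MRPS36, and of 4 in Kushen against Baituling, to 0.011 for DAP3, 0.015 for MRPL14, 0.066 for MRPL41 and 0.039 for MRPL58. This scaling shifts all genes alike, by its construction. Upper quartile scaling gave medians of -0.28 and -0.31 in the comparisons of CKI and of Kushen with Baituling and left 1 member past the fold in the latter, as did a minimum of 10 counts in every library. DESeq2's Wald test called 7 members higher in CKI against Kushen, beside 15.3% of all genes. The large minus small difference was -0.044 with no filter in CKI against Baituling and -0.007 with subunits by structure in Kushen against Baituling. Except for the shift of scaling, the cause was not tested.

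With 1 library left out at a time, the members higher and lower were 7 to 11 and 12 to 21 in CKI against Kushen, 6 to 8 and 56 to 62 in CKI against Baituling, and 2 to 4 and 56 to 62 in Kushen against Baituling. Shares of all genes with a library left out were not counted. The 7 came without the third Kushen library, and the 2 without the first Kushen or the third Baituling library. Medians ran from -0.040 to 0.0001, from -0.39 to -0.33 and from -0.40 to -0.32, the members past the fold numbered 1, 4 and 1 to 2, the last falling to 1 without the first Baituling library, and the large minus small difference ran from -0.077 to -0.030, from -0.081 to -0.040 and from 0.023 to 0.056. The replicate numbers share only a number: same-numbered libraries correlated from -0.349 to 0.285 in their deviations, and others from -0.29 to 0.355. With the replicate number as a block, 10 members were higher and 16 lower in CKI against Kushen. There were 8 and 60 in CKI against Baituling, and 3 and 61 in Kushen against Baituling. Of all genes, that block gave 18.6% higher and 19.2% lower, 38.5% and 36.5%, and 35.1% and 35.7%, in the same order. Among the members named with values, 22 recomputed values passed the threshold that the reported one missed, 78 missed it and 1508 kept their side. Members with counts near the lowest, 35 in a library, have the widest errors.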

Other observations

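Of 18 genes of mitochondrial transcription and RNA maturation, 10 were lower (55.6%) and 4 higher (22.2%) in CKI against Baituling. The median log2 fold change was -0.35. In Kushen against Baituling 12 were lower (66.7%), with a median of -0.29. Over all genes, 37% were lower and 39.1% higher in the first comparison, and 36.1% lower in the second. HSD17B10, a subunit of the RNase P that cuts mitochondrial transcripts, averaged 67.4 CPM with CKI, 62.5 with Kushen and 121 with Baituling and had -0.85 ± 0.06 in CKI against Baituling (edgeR adjusted p = 9.32e-11). TBRG4, an RNA-binding protein of the FASTK family, had -0.49 ± 0.05 (edgeR adjusted p = 1.19e-08), and ELAC2, which cuts the ends of tRNAs, -0.47 ± 0.05 (edgeR adjusted p = 1.62e-08). In CKI against Kushen 5 were higher (27.8%) and 3 lower (16.7%), beside 19.6% and 20.2% of all genes. PNPT1, a polynucleotide phosphorylase, was at -0.22 ± 0.05 (edgeR adjusted p = 0.00202).

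Of 11 regulators of mitochondrial biogenesis, 6 were lower (54.5%) and 2 higher (18.2%) in CKI against Baituling, beside 37% and 39.1% of all genes. PPARGC1A, a coactivator of nuclear genes for mitochondria, averaged 17.3 CPM with CKI, 15.9 with Kushen and 6.57 with Baituling, and was higher in CKI than in Baituling by 1.4 ± 0.09 (edgeR adjusted p = 3.04e-11), the opposite direction to most of the ribosomal protein genes. Its relative PPRC1 averaged 45.2, 43.7 and 81.5 CPM, with -0.85 ± 0.06 (edgeR adjusted p = 4.01e-11). GABPA, the DNA-binding subunit of GABP, was higher by 0.48 ± 0.06 (edgeR adjusted p = 6.59e-07), and MYC was lower in Kushen than in Baituling at -0.54 ± 0.05 (edgeR adjusted p = 9.03e-09). In CKI against Kushen GABPB1, the partner of GABPA, was higher by 0.39 ± 0.08 (edgeR adjusted p = 0.000437) and MYC by 0.23 ± 0.05 (edgeR adjusted p = 0.00107).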
